A study of Mus musculus with 12 samples.

Results

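The transcripts of 9 signaling genes were followed in the mouse colon: the activin subunit gene Inhba, the transforming growth factor beta genes Tgfb1, Tgfb2 and Tgfb3, the bone morphogenetic protein genes Bmp2, Bmp4 and Bmp5, and Grem1 and Fst, which encode secreted inhibitors of these ligands. They were listed by symbol, all 9 were found among the 19938 genes measured, and each was read by 1 probe set. Colon tissue came from male wild-type C57BL/6 mice that were 7 weeks old at the start and 8 weeks and 3 days old at sacrifice. Control mice drank water. Control+L-Arg mice received 1% L-arginine in the water for 4 days and no DSS. DSS mice received 4% dextran sulfate sodium (DSS), a polymer that injures the colonic epithelium, for 6 days and then water for 4 days. DSS+L-Arg mice received the same DSS and then 1% L-arginine for 4 days. All mice were killed on day 10, and each group held 3 mice with 1 array per mouse. All animals were wild-type, and the injury was chemical. According to the methods, each RNA sample joined a proximal and a distal piece of the colon, so the values are averages over epithelium, stroma, muscle and leukocytes of both regions.

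Ligands of this family are secreted dimers that bind paired type I and type II receptor kinases. Activins and TGF-betas signal mainly through SMAD2 and SMAD3, and BMPs through SMAD1, SMAD5 and SMAD8. In the gut wall, BMP signals restrain stem cell activity in the crypt and favor differentiation, BMP antagonists made by stromal cells near the crypt base oppose them, and TGF-beta restrains T cells and drives matrix production. Follistatin, the product of Fst, binds activin very tightly, and gremlin 1, the product of Grem1, binds and blocks BMP2 and BMP4.

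Signals are on the log2 scale, where a difference of 1 is a doubling, and levels were compared between groups and not between genes. All 12 colon epithelium markers exceeded a log2 signal of 5.89, the 30th percentile over all genes and arrays, in each mouse. The median of 11 neutrophil markers, as a log2 difference from the control mean, lay between -0.39 and 0.65 in control, -0.17 and 0.01 in control+L-Arg, 1.83 and 4.26 in DSS, and 0.18 and 0.53 in DSS+L-Arg mice. Control+L-Arg mouse 3 stood apart, with smooth muscle and fibroblast marker medians 1.08 and 0.64 above the control mean. Of the 9 genes, 7 were above the 30th percentile in all 12 arrays, Tgfb2 in 11 and Inhba in 8. In tissue RNA, fewer cells of a type and less RNA per cell cannot be told apart.

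**Figure D1:**
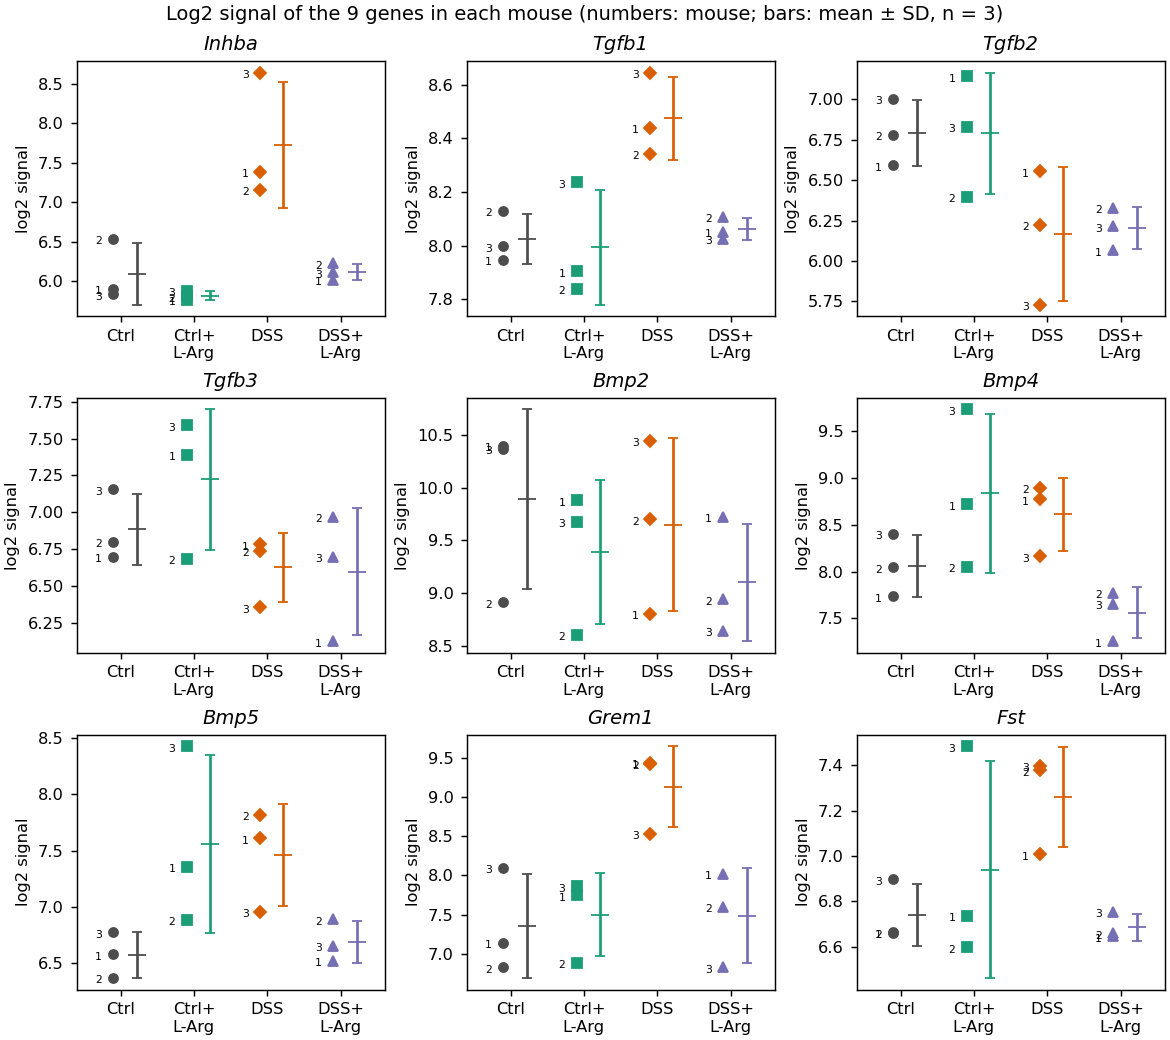
Log2 signal (vertical axis, a separate range for each gene) of the 9 genes in each of 12 mice, by group. Points are mice with their numbers, and bars give the mean and SD of 3 mice. The DSS mice lie above all other mice for Inhba, Tgfb1 and Grem1, and the highest Bmp4 and Bmp5 signals are both in control+L-Arg mouse 3.

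Inhba, which encodes the beta A subunit of activin A, rose 3.11-fold with DSS and was 3.05-fold lower with DSS+L-Arg than with DSS. Its log2 signal was 5.90, 6.53 and 5.83 in the control mice, and 7.39, 7.16 and 8.64 in the DSS mice. With L-arginine it was 5.77, 5.81 and 5.88 without DSS and 6.02, 6.23 and 6.11 after DSS. Every DSS mouse was thus above all 9 other mice, and DSS mouse 3 was the highest by more than 1 log2 unit. The DSS effect was 1.64 on the log2 scale (SE 0.31, 95% interval 0.95 to 2.33, adjusted p = 0.0165), and the DSS+L-Arg group differed from the DSS group by -1.61 (SE 0.31, 95% interval -2.30 to -0.92, adjusted p = 0.0489). Both comparisons use the same 3 DSS mice. The model gave all 4 groups 1 spread, though the DSS mice varied most, so these intervals may be too narrow. In limma fits of only the groups compared, neither difference passed (adjusted p = 0.125 and 0.229). The call between DSS+L-Arg and DSS lies at the threshold, and it was lost when any control, control+L-Arg or DSS+L-Arg array was left out (adjusted p 0.0565 to 0.18). The DSS call was lost without control mouse 1 (adjusted p = 0.0711) or control mouse 3 (adjusted p = 0.0839). Without DSS mouse 3 the DSS effect was 1.18 with an adjusted p of 0.00804. In the order of group means, DSS was first (7.73 ± 0.80, SD, n = 3), followed by DSS+L-Arg (6.12 ± 0.10), control (6.09 ± 0.39) and control+L-Arg (5.82 ± 0.06). DSS+L-Arg and control differed by 0.03 (95% interval -0.66 to 0.72, adjusted p = 0.980), and control and control+L-Arg overlapped. Of the DSS difference, 1.74% was left in the DSS+L-Arg group. Inhba was the 1 gene of the 9 that differed among the 4 groups by the moderated F test (F = 15.5, adjusted p = 0.0227, against 2.96% of all genes called).

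Neutrophil markers moved with Inhba between groups, while their relation within groups did not pass its test. Of 11 markers, 9 passed the test as higher with DSS and 3 as lower with DSS+L-Arg than with DSS, and DSS mouse 3 had both the highest neutrophil median (4.26) and the highest Inhba. Of the 14 monocyte and macrophage markers, 9 were higher with DSS and 4 lower with DSS+L-Arg, and their median was 0.92 to 1.46 above the control mean in the DSS mice. No neutrophil marker was above the 30th percentile in every array, while 10 of the 14 monocyte and macrophage markers were. Within groups, that is after each group's mean was subtracted, Inhba and the neutrophil median had a Pearson r of 0.94 (exact permutation p = 0.110, adjusted p = 0.265) and a Spearman rho of 0.76 (exact permutation p = 0.110, adjusted p = 0.302) over 12 mice, and r was 0.87 without the 2 mice farthest in neutrophil median. That Pearson r was positive within 2 of the 4 groups. Here and below, the group means that were subtracted still included the mice left out. Values of r without the 2 farthest mice therefore do not remove the influence of those mice. Inhba and the monocyte and macrophage median had a lower within-group r of 0.42 (exact permutation p = 0.299, adjusted p = 0.496). The rho of that pair was 0.38 (exact permutation p = 0.271, adjusted p = 0.475). The part of leukocyte number in the Inhba result was not tested. Over all 12 arrays, the genes most like Inhba among 13956 genes above the 30th percentile on average were Lilr4b (Pearson r = 0.991), Lilrb4a (0.983) and Itgam (0.981), which encode receptors and an integrin subunit of myeloid cells. These 12 arrays share 1 treatment effect, so the coefficients are a description.

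**Figure D2:**
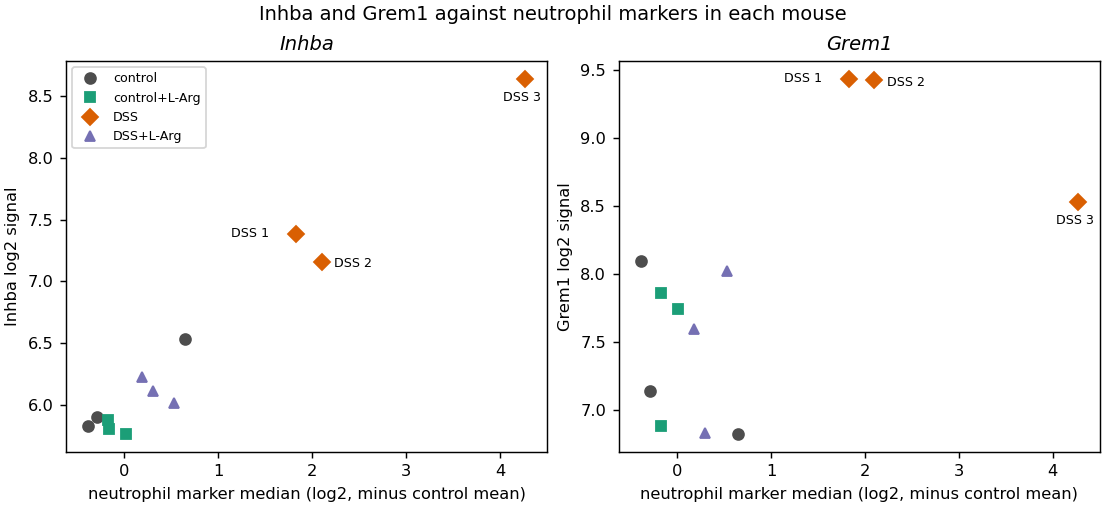
Log2 signal of Inhba (left, vertical axis) and Grem1 (right, vertical axis) against the median of the neutrophil markers, as a log2 difference from the control mean (horizontal axis), in each of 12 mice. DSS mouse 3, with a neutrophil median of 4.26, has the highest Inhba signal of the DSS mice (8.64) and the lowest Grem1 signal of them (8.53).

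Grem1, the BMP antagonist, had the largest difference of the 9 genes with DSS, a 3.43-fold rise. Its log2 signal was 7.14, 6.83 and 8.10 in control mice and 9.44, 9.43 and 8.53 in DSS mice. The values were 7.75, 6.89 and 7.86 in control+L-Arg mice and 8.02, 7.60 and 6.83 in DSS+L-Arg mice. The 3 DSS mice were the highest of all 12, and the 3 other groups covered nearly the same range. The DSS effect was 1.78 (SE 0.40, 95% interval 0.89 to 2.66, adjusted p = 0.0348). The difference between DSS+L-Arg and DSS was -1.65 (95% interval -2.53 to -0.76), or 3.13-fold lower, with an adjusted p of 0.114, so it was not called over all genes. Means were 9.13 ± 0.52 (SD, n = 3) in DSS, 7.50 ± 0.53 in control+L-Arg, 7.48 ± 0.60 in DSS+L-Arg and 7.35 ± 0.66 in control mice. The last 3 of these overlapped, and DSS+L-Arg differed from control by 0.13 (95% interval -0.76 to 1.02). By the means, 7.33% of the DSS difference was left with L-arginine, and no interval was computed for this share. The DSS call was lost without control mouse 1 or 2, control+L-Arg mouse 1, DSS mouse 1 or 2, or DSS+L-Arg mouse 2 (adjusted p 0.052 to 0.121), with the log2 difference between 1.51 and 1.78 in those fits.

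Grem1 and Inhba both rose with DSS, but they were not highest in the same mouse. Within groups the relation of the pair was negative (Pearson r = -0.59, exact permutation p = 0.037, adjusted p = 0.222; Spearman rho = -0.53, p = 0.10, adjusted p = 0.361; r = -0.51 without the 2 mice farthest in Inhba) and did not pass the correction over 36 pairs. Of 12 fibroblast markers, 2 (Pdgfra and Pdpn) were called as higher with DSS, against 4.03% of all genes. At an unadjusted limma p under 0.05 there were 3, with 2 higher and 1 lower, against 19.6% of all genes. Their medians relative to the control mean were -0.00 to 0.41 in DSS and -0.17 to 0.24 in DSS+L-Arg mice. Those of control+L-Arg mice, -0.12 to 0.64, spanned the DSS range. DSS mouse 3 had the lowest fibroblast median of its group as well as the lowest Grem1. The median of 10 endothelial markers was 0.09 to 0.65 in DSS and -0.34 to -0.03 in DSS+L-Arg mice relative to the control mean, with 0 of 10 called by limma and 6 at an unadjusted p under 0.05 with DSS. The part of stromal cell number in the Grem1 result was not tested. The genes most like Grem1 over the 12 arrays were Bdkrb1, a kinin receptor gene (Pearson r = 0.945), Igfbp5, which encodes an IGF-binding protein (0.939), and Medag (0.929).

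Sequence before an annotated start is shown for Inhba and Grem1, since these 2 genes were called with DSS. The RefSeq promoter table (GRCm38.p6) held an entry for 6 of the 9 genes, with Tgfb3, Bmp2 and Fst missing. The table gives 1 start per gene, and for Inhba and Tgfb2 that start lies inside the gene as RefSeq annotates it, so the window is not upstream of all their transcripts. The 250 bases before the start are printed 5′ to 3′ on the strand of the gene, and capitals mark a motif that was found. They lie at chr13:16011601-16011850 on the plus strand for Inhba and at chr2:113758649-113758898 on the minus strand for Grem1.
Inhba: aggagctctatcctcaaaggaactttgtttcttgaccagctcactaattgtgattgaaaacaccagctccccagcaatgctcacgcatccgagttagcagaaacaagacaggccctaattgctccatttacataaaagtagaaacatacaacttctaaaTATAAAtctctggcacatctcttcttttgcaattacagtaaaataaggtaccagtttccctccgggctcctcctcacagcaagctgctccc
Grem1: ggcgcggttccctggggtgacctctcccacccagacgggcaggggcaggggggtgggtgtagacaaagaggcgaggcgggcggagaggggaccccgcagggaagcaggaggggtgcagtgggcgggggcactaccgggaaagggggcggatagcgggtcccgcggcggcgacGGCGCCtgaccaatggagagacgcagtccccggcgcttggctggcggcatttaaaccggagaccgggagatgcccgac
Both strands were searched for the AP-1 motif (TGANTCA), the cyclic AMP response element (TGACGTCA), the SMAD palindrome (GTCTAGAC), the BMP response motif (GGCGCC) and the TATA box (TATAAA). No matches overlapped. Inhba had TATAAA 91 to 86 bases before the start, and Tgfb2 had it 31 to 26 bases before its start, as 12.4% of 32851 promoters of this length have it somewhere. Grem1 had GGCGCC 78 to 73 bases before the start, a motif found in 9.59% of promoters. AP-1 letters were in 6.75%, CRE letters in 1.55% and SMAD palindromes in 0.167% of promoters, and in 0 of the 6 windows here. A match in these letters is not evidence of binding.

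Among the 3 TGF-beta ligands, none passed the adjusted test in any comparison. Tgfb1, the main isoform of leukocytes and epithelium, had log2 signals of 7.95, 8.13 and 8.00 in control, 7.90, 7.84 and 8.24 in control+L-Arg, 8.44, 8.34 and 8.64 in DSS, and 8.05, 8.11 and 8.03 in DSS+L-Arg mice. All 3 DSS mice were above all others. The DSS difference was 0.45 (SE 0.12, 95% interval 0.19 to 0.71, adjusted p = 0.0553), a 1.37-fold difference just outside the threshold, and it passed in 5 of 20 alternative settings. DSS+L-Arg differed from DSS by -0.41 (95% interval -0.67 to -0.16, adjusted p = 0.169) and from control by 0.04 (95% interval -0.22 to 0.29). The genes with the most similar profiles were Slc15a3 (Pearson r = 0.963), Fcgr3 (0.958) and Fcgr2b (0.955), and Fcgr3 and Fcgr2b encode Fc receptors of leukocytes.

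Tgfb2, a second isoform, had lower means in both groups that received DSS. Its log2 signal was 6.59, 6.78 and 7.00 in control and 7.14, 6.40 and 6.83 in control+L-Arg mice, and 6.55, 6.22 and 5.73 in DSS and 6.07, 6.33 and 6.21 in DSS+L-Arg mice. Every DSS and DSS+L-Arg mouse was below every control mouse. The difference was -0.62 with DSS (95% interval -1.10 to -0.14, adjusted p = 0.138) and -0.59 with DSS+L-Arg against control (95% interval -1.07 to -0.11, adjusted p = 0.307), 2 comparisons that share the control mice. DSS and DSS+L-Arg differed by 0.03 (95% interval -0.45 to 0.51). By the means, 94.6% of the difference from control was left, and no interval was computed for this share. Smooth muscle marker medians lay below the control mean in these mice, by -1.30 to -0.66 in DSS and -0.94 to -0.23 in DSS+L-Arg mice. They were -0.42 to 0.71 in control and -0.69 to 1.08 in control+L-Arg mice, so the DSS+L-Arg mice overlapped both of these groups. Of the 10 markers, 0 passed the adjusted test. The part of muscle content in the Tgfb2 values was not tested.

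Tgfb3, an isoform of mesenchymal cells, was 6.70, 6.80 and 7.16 in control, 7.39, 6.68 and 7.59 in control+L-Arg, 6.78, 6.74 and 6.35 in DSS, and 6.12, 6.97 and 6.70 in DSS+L-Arg mice. These groups overlapped. The DSS difference was -0.26 (95% interval -0.82 to 0.30, adjusted p = 0.651) and that between DSS+L-Arg and DSS was -0.03 (95% interval -0.59 to 0.54).

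None of the BMP ligands passed the adjusted test in any comparison. Bmp4, made by mesenchymal cells of the gut wall, had log2 signals of 7.74, 8.05 and 8.40 in control, 8.72, 8.05 and 9.74 in control+L-Arg, 8.77, 8.90 and 8.17 in DSS, and 7.26, 7.78 and 7.66 in DSS+L-Arg mice. The DSS+L-Arg mice were below every DSS and every control+L-Arg mouse. Bmp4 differed by 0.55 with DSS (95% interval -0.24 to 1.34, adjusted p = 0.445), by -1.05 between DSS+L-Arg and DSS (95% interval -1.84 to -0.27, adjusted p = 0.244) and by -1.27 between DSS+L-Arg and control+L-Arg (95% interval -2.06 to -0.49, adjusted p = 0.145). The last of these, a 2.42-fold difference, passed in 1 of 20 alternative settings. That setting left out control+L-Arg mouse 2 (log2 difference -1.66, adjusted p = 0.0434). Over all 20 settings the log2 difference ranged from -1.66 to -0.82, with an adjusted p of up to 0.386.

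Bmp5, a second mesenchymal BMP, was 6.58, 6.37 and 6.77 in control and 7.36, 6.88 and 8.43 in control+L-Arg mice. It was 7.61, 7.82 and 6.96 in DSS and 6.52, 6.89 and 6.65 in DSS+L-Arg mice. Both the control+L-Arg and the DSS mice were all above the control mice. The difference was 0.89 with DSS (95% interval 0.16 to 1.62, adjusted p = 0.164), 0.98 with control+L-Arg (95% interval 0.25 to 1.71, adjusted p = 0.999) and -0.77 between DSS+L-Arg and DSS (95% interval -1.50 to -0.04, adjusted p = 0.342). The first 2 of these share the control mice, and none was called.

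Bmp2, which epithelial cells also make, varied widely within groups. Its log2 signal was 10.40, 8.91 and 10.37 in control, 9.88, 8.61 and 9.68 in control+L-Arg, 8.81, 9.70 and 10.45 in DSS, and 9.72, 8.94 and 8.64 in DSS+L-Arg mice. The 4 groups overlapped, with SDs from 0.56 to 0.85. The DSS difference was -0.24 (95% interval -1.36 to 0.87, adjusted p = 0.859) and that between DSS+L-Arg and DSS was -0.55 (95% interval -1.66 to 0.57, adjusted p = 0.661), and both intervals reached past a 2-fold lower level.

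Fst, the activin inhibitor, was 6.66, 6.66 and 6.90 in control, 6.74, 6.60 and 7.48 in control+L-Arg, 7.01, 7.38 and 7.40 in DSS, and 6.65, 6.66 and 6.75 in DSS+L-Arg mice. DSS mice were above all control and DSS+L-Arg mice but not above control+L-Arg mouse 3. The DSS difference was 0.52 (95% interval 0.09 to 0.95, adjusted p = 0.170). It was called in 1 of 20 alternative settings, the one without control+L-Arg mouse 3 (adjusted p = 0.0449), and the adjusted p reached 0.352 in the others. DSS+L-Arg differed from DSS by -0.57 (95% interval -1.01 to -0.14, adjusted p = 0.248). Inhba and its inhibitor thus lay on the same side of control in the DSS mice, 1.64 and 0.52 on the log2 scale.

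**Figure D3:**
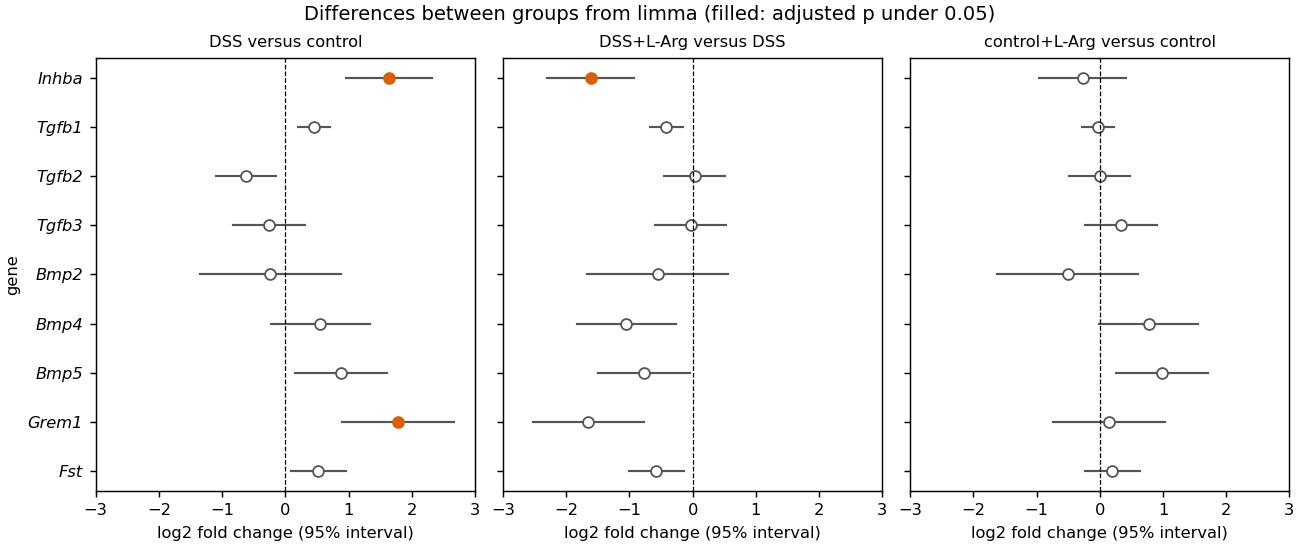
Log2 fold change of each of the 9 genes (horizontal axis) with its 95% interval in 3 comparisons, n = 3 mice per group. Filled points had an adjusted p under 0.05: Inhba (1.64) and Grem1 (1.78) for DSS against control, and Inhba (-1.61) for DSS+L-Arg against DSS. No point is filled for control+L-Arg against control.

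Across the 9 genes, the DSS comparison called 2 (Inhba and Grem1), against 4.03% of all genes. At an unadjusted p under 0.05 it gave 6 of 9, against 19.6% of all genes, and the same 6 genes had groups that did not overlap, against 25% of all genes. The call rule named in the methods (p under 0.01 and more than a 2-fold difference) gave Inhba and Grem1, against 2.13%. The median log2 difference was 0.52 over the 9 genes and -0.01 over all genes.

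DSS+L-Arg against DSS called 1 of 9, Inhba, against 0.637% of all genes. At an unadjusted p under 0.05 it gave 6 of 9, all lower with L-arginine (Inhba, Tgfb1, Bmp4, Bmp5, Grem1 and Fst), against 13.5% of all genes, and these 6 also had groups that did not overlap, against 16.6%. Inhba and Grem1 passed the thresholds of the study, against 0.953%. The median was -0.57 over the 9 genes and 0.06 over all genes. The genes were listed with earlier results of these data known, so these counts are a description.

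L-arginine without DSS called 0 of 9 by limma, against 0% of all genes. Bmp5 had an unadjusted p under 0.05, against 3.44% of all genes, and was the 1 gene of the 9 whose groups did not overlap, against 10.4%. Bmp4 differed by 0.77 (95% interval -0.01 to 1.56), and the other 7 by -0.50 to 0.34.

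DSS+L-Arg mice were also set against each group without DSS. Against control+L-Arg, 0 of 9 were called by limma (0.306% of all genes were), 4 had an unadjusted p under 0.05 (Tgfb2, Tgfb3, Bmp4 and Bmp5, all lower, against 15.6% of all genes), Bmp4 passed the thresholds of the study (0.727% of all genes did) and 3 did not overlap (21.1% of all genes did not). Tgfb2 and Bmp4 lay lower and Inhba higher in these 3. Against control, 0 of 9 were called (0.0652% of all genes were), and Tgfb2 was the single gene with an unadjusted p under 0.05 (12.6% of all genes) and with groups that did not overlap (23.2%).

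The effect of L-arginine after DSS minus its effect without DSS was tested as an interaction, which called 0 of 9 genes by limma, against 0.0752% of all genes. At an unadjusted p under 0.05 there were 6 of 9, all negative, against 10.8% of all genes. Bmp4 (-1.82, adjusted p = 0.233), Bmp5 (-1.75, adjusted p = 0.216) and Grem1 (-1.79, adjusted p = 0.305) passed the thresholds of the study, against 1.05% of all genes. For Bmp4 and Bmp5 the log2 differences with L-arginine were 0.77 and 0.98 without DSS and -1.05 and -0.77 after DSS, and for Grem1 they were 0.14 and -1.65. Control+L-Arg mouse 3 held the highest Bmp4 and Bmp5 of all 12 mice, and without it the interaction was -1.37 for Bmp4 and -1.32 for Bmp5.

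Within groups, the genes were also set against the marker lists. Each of the 9 genes was paired with each of 7 marker medians, 63 relations in all, over 12 mice after the group mean was subtracted, with exact permutation over the 1296 orders of mice within groups, 2-sided. In 9 relations both the Pearson and the Spearman coefficient had an adjusted p under 0.05, and these 9 involved Bmp4, Bmp5, Tgfb3 and Bmp2 alone. Bmp4 followed the median of 12 fibroblast and myofibroblast markers with r = 0.97 (exact permutation p = 0.00154, adjusted p = 0.0278) and rho = 0.95 (p = 0.00154, adjusted p = 0.0243), and r was 0.93 without the 2 mice farthest in the markers. Bmp5 did so with r = 0.95 (exact permutation p = 0.00309, adjusted p = 0.0278) and rho = 0.88 (p = 0.0054, adjusted p = 0.0425), and r was 0.90 without those mice. For Tgfb3 r was 0.91 and rho 0.94 (both at the smallest p that exact permutation can give here, 0.000772, adjusted p = 0.0278 and 0.0243), and r was 0.88 without them. The mice left out were control+L-Arg mice 2 and 3, the lowest and the highest of their group in these markers. Here and in the relations below, the group means still included the mice left out, so such values do not remove their influence. Each coefficient was positive within all 4 groups.

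The same 3 genes followed smooth muscle markers, with r = 0.90 for Bmp4 (rho = 0.90), 0.88 for Bmp5 (rho = 0.88) and 0.88 for Tgfb3 (rho = 0.90), with exact permutation p from 0.00231 to 0.00694 and adjusted p from 0.0243 to 0.0486. Without the 2 farthest mice r was 0.79, 0.73 and 0.79. Bmp5 and Tgfb3 also followed endothelial markers (r = 0.87 and 0.85, rho = 0.85 and 0.86, 0.74 and 0.79 without the 2 farthest mice, exact permutation p from 0.00231 to 0.0054, adjusted p from 0.0243 to 0.0425). All of these marker medians come from the same arrays as the genes.

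Bmp2 followed a different list, the 8 Hox genes of the posterior colon, whose expression marks the position along the gut. The coefficients were r = 0.92 (exact permutation p = 0.00154, adjusted p = 0.0278) and rho = 0.87 (p = 0.00231, adjusted p = 0.0243), and r was 0.86 without control mouse 2 and control+L-Arg mouse 2. The Hox median relative to the control mean was 0.37, -1.10 and 0.59 in control, 0.86, -0.79 and 0.31 in control+L-Arg, -0.92, -0.63 and -0.16 in DSS, and 0.33, -1.03 and -1.18 in DSS+L-Arg mice. In each group the mouse with the lowest Hox median also had the lowest Bmp2. The parts that the proximal and the distal piece took in each sample are not given in the sources used here, and their share in the Bmp2 values was not tested.

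**Figure D4:**
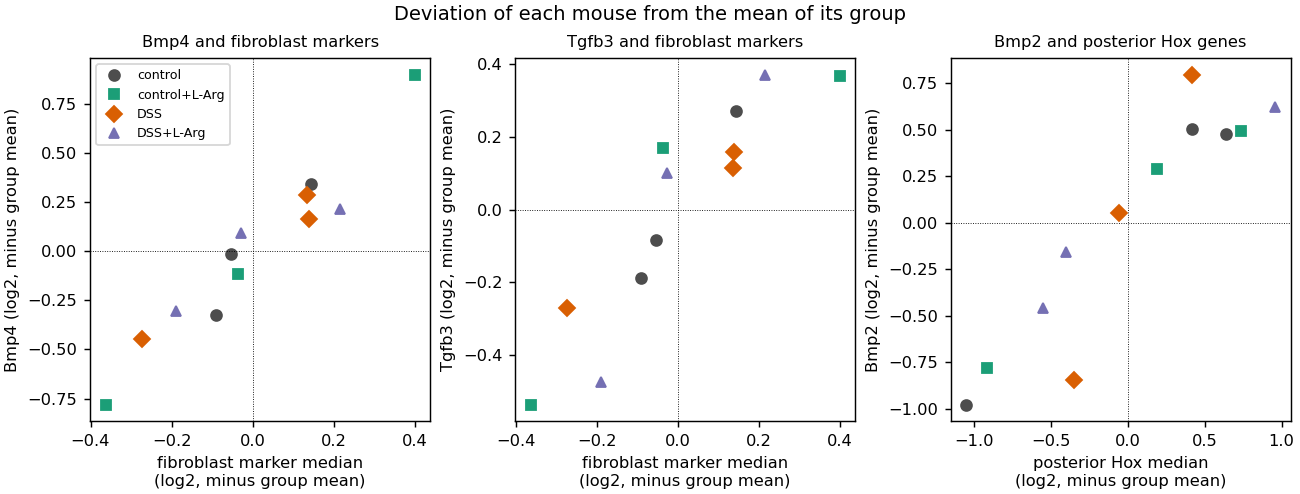
Deviation of each of 12 mice from its group mean, on the log2 scale, for Bmp4 (left) and Tgfb3 (middle) against the median of fibroblast and myofibroblast markers, and for Bmp2 against the median of posterior Hox genes (right). Pearson r is 0.97, 0.91 and 0.92, and control+L-Arg mice 2 and 3 are the extremes of the left panel.

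Among the genes themselves, 36 pairs were compared in the same way, and 0 passed after adjustment, with 7 at an unadjusted p under 0.05. Bmp4 with Bmp5 had r = 0.94 (exact permutation p = 0.00463, adjusted p = 0.0625) and rho = 0.88 (p = 0.00772, adjusted p = 0.0926), and r was 0.83 without the 2 farthest mice. Tgfb3 with Bmp4 had r = 0.87 (exact permutation p = 0.00154, adjusted p = 0.0556) and rho = 0.85 (p = 0.00231, adjusted p = 0.0833), and r was 0.83 without the 2 farthest mice. Inhba with Tgfb1 had r = 0.67 (exact permutation p = 0.00694, adjusted p = 0.0625) and rho = 0.66 (p = 0.0177, adjusted p = 0.150), and r fell to 0.48 without DSS mice 2 and 3.

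The rest of the pathway was read from 7 lists with 110 genes measured of 116 listed, and the remaining genes were not analysed here. With DSS, 9 of the 110 rose and 2 fell, against 4.03% of all genes called. An unadjusted p under 0.05 was found for 38, with 27 higher and 11 lower, against 19.6% of all genes, and the median log2 difference was 0.02. Between DSS+L-Arg and DSS, 7 were lower and 0 higher, against 0.637% of all genes called. An unadjusted p under 0.05 was found for 36, with 7 higher and 29 lower, against 13.5% of all genes, and the median was -0.02.

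Over all genes, 4.03% were called with DSS and 0.637% between DSS+L-Arg and DSS. Of 24 other ligands, 1 gene, Bmp8b, rose with DSS, and none was called between DSS+L-Arg and DSS. Its log2 signal was 8.69, 8.13 and 7.88 in control and 9.33, 9.64 and 11.22 in DSS mice (log2 difference 1.83, SE 0.39, adjusted p = 0.0275). Bmp8b has a close paralog, Bmp8a, whose difference was -0.07. Of 17 receptors and co-receptors, Acvr2a, a type II receptor for activin, fell by 0.46 on the log2 scale with DSS (SE 0.10, adjusted p = 0.0333). It was 9.50, 9.42 and 9.37 in control and 8.89, 8.86 and 9.15 in DSS mice, and 9.18, 9.10 and 8.91 in control+L-Arg and 9.09, 9.27 and 9.17 in DSS+L-Arg mice. Control+L-Arg mice, in which Inhba was lowest, were thus below control as well (log2 difference -0.37, adjusted p = 0.999). None of the 14 SMADs and SMAD regulators was called in either comparison. An unadjusted p under 0.05 was found for 4 of them in each, against 19.6% and 13.5% of all genes.

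Of 17 other secreted inhibitors, 3 rose with DSS and 1 fell, against 4.03% of all genes called. Between DSS+L-Arg and DSS 1 was lower, against 0.637%. Chrdl2, which encodes a chordin-like BMP antagonist, rose by 1.06 (SE 0.16, adjusted p = 0.00652), from 6.36, 6.36 and 6.53 in control to 7.49, 7.75 and 7.17 in DSS mice. Bmper, which encodes a BMP-binding regulator, rose by 1.08 (SE 0.26, adjusted p = 0.0463). Dcn, whose product decorin binds TGF-beta and collagen and which fibroblasts express strongly, rose by 1.54 (SE 0.27, adjusted p = 0.0116) and was 1.37 lower with DSS+L-Arg (log2 difference -1.37, adjusted p = 0.0489). Fstl3, which encodes a follistatin-like activin inhibitor, fell by 0.72 (SE 0.18, adjusted p = 0.0448), while the difference for Fst was 0.52. Its signal was 7.50, 7.94 and 8.11 in control and 7.31, 6.82 and 7.24 in DSS mice.

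Of 15 genes for latency, processing and activation, 1 was called with DSS, against 4.03% of all genes. This was Thbs1, which encodes the TGF-beta activator thrombospondin 1 and rose by 1.31 (SE 0.29, adjusted p = 0.0305). It was 9.17, 9.90 and 9.88 in control, 10.76, 10.41 and 11.72 in DSS, and 8.99, 9.20 and 9.23 in DSS+L-Arg mice. Thbs1 was lower with DSS+L-Arg than with DSS (log2 difference -1.82, SE 0.29, adjusted p = 0.0246), a 3.54-fold difference. Bmp1, a protease that cleaves procollagens and chordin, was also lower (log2 difference -0.70, SE 0.13, adjusted p = 0.0359). These were the 2 calls of this list between DSS+L-Arg and DSS, against 0.637% of all genes. Itgav and Itgb6, the subunits of the TGF-beta-activating integrin of epithelial cells, exceeded their control+L-Arg levels in DSS+L-Arg mice (log2 differences of 0.88 and 1.14, both with adjusted p = 0.0379). Neither was called against control (0.47, adjusted p = 0.234, and 0.73, adjusted p = 0.143) or between DSS+L-Arg and DSS (0.09, adjusted p = 0.804, and 0.30, adjusted p = 0.466). Control+L-Arg differed from control by -0.41 and -0.40, with 0 called.

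Of the 14 TGF-beta targets, 4 were called in each comparison. With DSS, 4 rose and 0 fell, against 4.03% of all genes called. At an unadjusted p under 0.05 there were 9, against 19.6% of all genes, of which 7 were higher and 2 lower. The lower ones were Tagln (log2 difference -1.24, adjusted p = 0.178), a smooth muscle gene, and Cdkn2b, a cell cycle inhibitor gene (-0.94, adjusted p = 0.0912). The median log2 difference was 0.52 over the list and -0.01 over all genes. Lox, which encodes a collagen crosslinking enzyme, rose 4.21-fold, from 5.46, 5.62 and 5.85 in control to 7.40, 8.31 and 7.44 in DSS mice (log2 difference 2.07, SE 0.27, adjusted p = 0.00291). All 3 control values lay below 5.89, the 30th percentile, and no detection call was made for these arrays, so the fold may be understated. Tgfbi, a matrix protein gene, rose by 1.31 (SE 0.24, adjusted p = 0.0143), Il11, a stromal cytokine gene, by 1.11 (SE 0.16, adjusted p = 0.00519) and Junb, an AP-1 subunit gene, by 0.47 (SE 0.11, adjusted p = 0.043). Between DSS+L-Arg and DSS, 4 were lower and 0 higher, against 0.637% of all genes called, and the median was -0.37. These were Lox (log2 difference -1.64, adjusted p = 0.0287), Tgfbi (-1.59, adjusted p = 0.0217), Ccn2 (-1.06, adjusted p = 0.0491) and Il11 (-0.91, adjusted p = 0.0359). Lox was 5.87, 6.48 and 5.87 in DSS+L-Arg mice, below all 3 DSS mice, and Tgfbi was 8.76, 9.04 and 8.77 in these mice against 10.60, 10.08 and 10.67 in DSS mice. Fibroblasts and myeloid cells are known to express several of these genes, and the part of either cell type in these values was not tested. Of the 9 BMP targets, 0 were called by limma in either comparison, and the medians were -0.16 and 0.12. An unadjusted p under 0.05 was found for 1 with DSS and 3 between DSS+L-Arg and DSS, against 19.6% and 13.5% of all genes.

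The counts of pathway genes depended on single mice. The DSS count of 11 was 19 without DSS mouse 1, and it was 4 to 7 without control mouse 1, 2 or 3, control+L-Arg mouse 1, DSS mouse 2 or DSS+L-Arg mouse 3. The DSS+L-Arg count of 7 was 0 without DSS+L-Arg mouse 1 or 3, 1 without DSS+L-Arg mouse 2 or control+L-Arg mouse 1, and 3 without control mouse 1, 2 or 3 or control+L-Arg mouse 3.

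**Figure D5:**
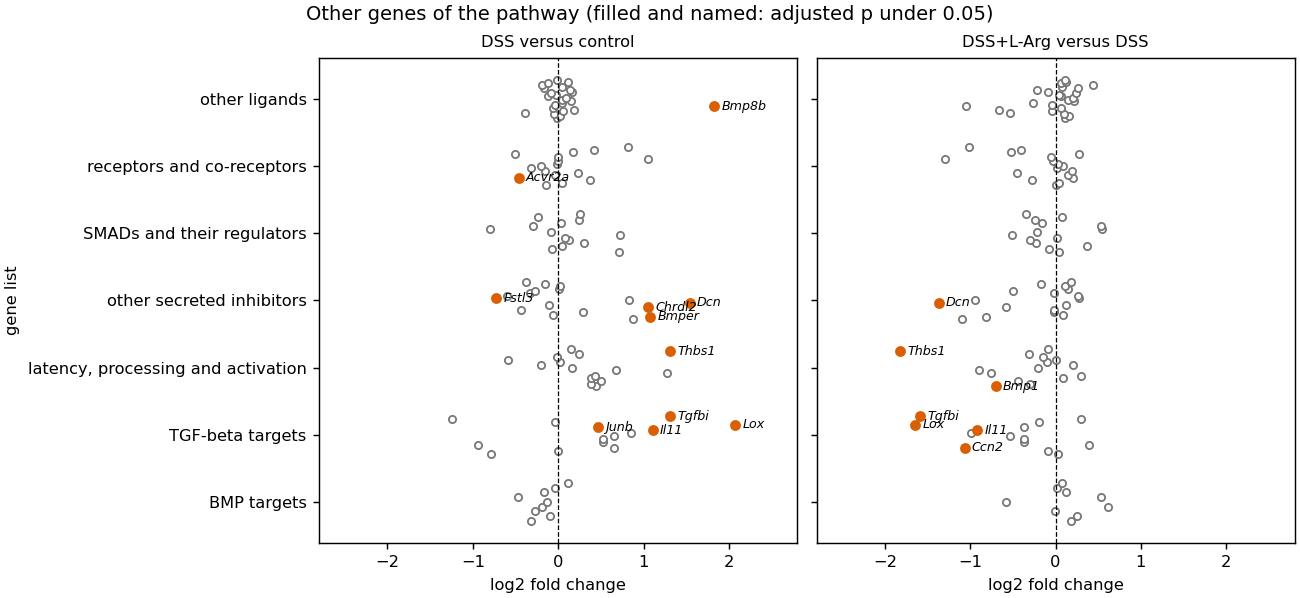
Log2 fold change (horizontal axis) of 110 other genes of the pathway in 7 lists, for DSS against control (left) and DSS+L-Arg against DSS (right), 1 point per gene. Filled, named points had an adjusted p under 0.05. With DSS, 9 of these lie above 0 and 2 below, and between DSS+L-Arg and DSS all 7 lie below 0.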

How the data were processed

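RNA from colon of each of 12 mice, a proximal and a distal piece combined per the methods, was hybridised to Affymetrix mouse Gene ST arrays. The authors made the deposited log2 signals with Affymetrix Expression Console 1.1 and RMA (background correction, quantile normalization over arrays, and 1 summary per probe set), and their processing notes name build mm9. Quantile normalization hides a change shared by most genes. No read depth applies to arrays, where precision depends on how many mice were used.

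The platform table assigned the 35556 probe sets to 19938 genes. Those with several genes (1621) or not in that table (12146) were left out, and the brightest was kept for each gene. Differences were tested by limma 3.58.1 (R 4.3.3). The model fitted a mean for each group to all 12 arrays, with 8 residual degrees of freedom (3.37 prior), and p-values were adjusted by Benjamini-Hochberg over all genes. Genes were called at an adjusted p under 0.05. The fit was checked on simulated data in which a gene had the same spread in every group. That check does not cover groups of unequal spread. The methods name SAM, whose p comes from relabelled arrays. It was not run, and the study's own call rule (p under 0.01 and more than a 2-fold difference) was applied to limma's p. The members and gene lists were chosen with earlier results of these data known. Named pathway genes were up to 4 per list with the largest change among those called with DSS or between DSS+L-Arg and DSS, and Itgav and Itgb6 were named after their values were seen. For the genes most like Inhba and Grem1, the 3 highest correlations were taken, and those of Tgfb1 were added after their values were seen. Labels call the samples biological replicates and do not say whether mice shared cages or days. Mice with the same number deviated together between control and control+L-Arg (r = 0.205, 0.477 and 0.261), all over 0.1. In the 5 other pairs of groups at least 1 number had a lower correlation (-0.355 to 0.03), though others reached 0.408. Alternatives were another scaling, normalization, prior, filter, probe set rule, array weights, a replicate block, and leaving out each array.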

Additional observations from a re-analysis of the deposited data

Results flagged for a closer look

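Bmp5 was singled out because its signal with L-arginine lay on opposite sides with and without DSS, with groups that did not overlap in either case. Over all genes, groups did not overlap for 16.6% with DSS and 10.4% without it, and the share that met both on opposite sides was not computed. The values below are those that singled out Bmp5, so they are a description. All 3 control+L-Arg mice were above all 3 control mice (log2 difference 0.98), and all 3 DSS+L-Arg mice were below all 3 DSS mice (log2 difference -0.77). The difference between these effects was -1.75 (SE 0.47, 95% interval -2.78 to -0.72), with an adjusted p of 0.216 by limma, so it failed the correction over all genes. Leaving out control+L-Arg mouse 3 gave 0.55 for L-arginine without DSS and -1.32 for the difference between the effects. Within groups Bmp5 followed the fibroblast marker median (r = 0.95), and the 2 highest mice of the control+L-Arg group in that median, 1 and 3, also had its 2 highest Bmp5 signals.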

How the results depend on the processing

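For the DSS comparison the 2 calls among the 9 genes became 0 in a fit of only the groups compared, and 0 to 4 when 1 array was left out. For DSS+L-Arg against DSS the 1 call became 0 with only the groups compared, with the mouse number as a replicate block (adjusted p of Inhba 0.0684) or with a trended and robust prior (0.0672), 0 to 1 when 1 array was left out, and 2 at the thresholds of the study. Those thresholds gave 1 call for DSS+L-Arg against control+L-Arg and 3 for the interaction, where the adjusted p gave 0. At the adjusted p, DSS+L-Arg against control+L-Arg gave 0 to 1 when 1 array was left out. The F test over 4 groups called 0 to 1 when 1 array was left out, and 0 without control mouse 3, control+L-Arg mouse 1 or DSS+L-Arg mouse 3. With only the groups compared, the pathway counts fell from 11 to 2 and from 7 to 1, and a further quantile normalization gave 4 in place of 7. Leaving out 1 array gave 4 to 19 and 0 to 8. Fits that leave out arrays or groups hold fewer arrays and degrees of freedom, and the cause of these shifts was not tested. Inhba with DSS was called in 17 of 20 alternatives (log2 difference 1.18 to 1.92), Grem1 in 13 of 20 (1.51 to 2.15) and Inhba between DSS+L-Arg and DSS in 8 of 20 (-1.90 to -1.15), all with the same sign. Mouse numbers pair control and control+L-Arg by correlation alone. A replicate block in a fit of these groups, chosen after seeing the data, called 0 of 9, as did the fit without it. With 3 mice per group, an interval that includes 0 leaves the direction unsettled.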
